A study of Homo sapiens with 8 samples.

Results

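The 10 genes described here belong to the HSF1 and Hsp90 chaperone system and were followed through 8 RNA sequencing libraries: the transcription factor genes HSF1 and HSF2, the cytosolic Hsp90 genes HSP90AA1 and HSP90AB1, the Hsp90 cochaperone genes CDC37, AHSA1, PTGES3, FKBP4 and FKBP5, and the small heat shock protein gene HSPB1. They were taken as the rows of the count table whose Ensembl identifier carries one of these 10 symbols, 10 of 60617 rows, and each symbol matched 1 row. All 10 passed the filter on low counts that left 17693 genes for testing. The libraries came from MCF-10A, an immortal breast epithelial line of human origin that does not form tumours, in 2 forms that the labels call Empty and NeuT. What the NeuT cells carry is not spelled out in the labels. Each form was left untreated or was given JG-98, an inhibitor of Hsp70, at 1 µM for 12 h, which made 4 groups of 2 libraries: Empty untreated, Empty with JG-98, NeuT untreated and NeuT with JG-98. The series sets out to ask whether transformed cells respond differently to the compound. All 4 groups were grown in the same medium with horse serum, epidermal growth factor, insulin, cholera toxin and hydrocortisone, a ligand of the glucocorticoid receptor. Nothing in the labels says that replicates were separate cultures or that a line was more than 1 derivation, so every p-value below measures only the spread between these libraries.

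As background, Hsp90 is an abundant ATP-dependent chaperone that finishes the folding of kinases, steroid receptors and other client proteins, many of which it receives from Hsp70. Its cochaperones set the pace of that cycle or bring in particular clients. HSF1 is the transcription factor that switches on heat shock genes when unfolded proteins accumulate. In the usual model it is held inactive by chaperones including Hsp70 and Hsp90, which is why genes of this system are read when Hsp70 is inhibited. It binds arrays of the unit nGAAn in alternating orientation, called heat shock elements.

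Such elements are shown first for the members whose promoter window holds them, as the letters through which HSF1 is known to bind. RefSeq promoter windows of GRCh38.p14, 250 bases before to 50 bases after an annotated start, were given for 8 of the 10 members (all but HSF1 and FKBP4). They were searched for 3 adjoining units, GAANNTTCNNGAA, and for 2 units, GAANNTTC or TTCNNGAA, on both strands. The 2-unit motifs lie within the 3-unit motif and are counted there too. A 3-unit match was present in 172 of 35116 windows of all genes (0.49%). Counted by gene, over any of its windows, it was present for 166 of 27305 genes (0.608%) and for 2 of the 8 members, HSP90AA1 and HSP90AB1. The 2-unit motif GAANNTTC was present in 6.769% of all windows, and for 8.207% of genes and 3 of the 8 members, HSPB1 being the third. In the stretches below, written 5′ to 3′ in the direction of transcription, capitals mark the matched letters.
HSP90AB1, chr6:44247738-44247865, plus strand: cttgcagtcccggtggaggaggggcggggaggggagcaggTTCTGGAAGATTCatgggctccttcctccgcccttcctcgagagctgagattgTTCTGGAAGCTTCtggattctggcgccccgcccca
HSP90AA1, chr14:102087105-102087132, minus strand: TTCCGGAAGGTTCgggaggcTTCTGGAA
HSPB1, chr7:76302451-76302538, plus strand: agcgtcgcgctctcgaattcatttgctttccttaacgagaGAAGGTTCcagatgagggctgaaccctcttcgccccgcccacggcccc
The HSP90AB1 stretch covers bases -205 to -78 from the start at position 44247943 and lies in no annotated exon. It holds 2 separate 3-unit matches. The HSP90AA1 stretch covers bases -88 to -61 from the start at position 102087044 and lies inside an annotated exon of the gene. It holds one 3-unit match and, after 7 further bases, a 2-unit match. The HSPB1 stretch lies upstream of the gene's only listed start, outside annotated exons, with a single 2-unit match. In the windows given for HSF2, FKBP5, PTGES3, AHSA1 and CDC37 none of these letters were found. A match describes the sequence and is not a measured binding site.

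The level of each member was compared per kilobase, as TPM, the counts divided by the exonic length of the gene model and scaled to a common sum in each library. The order was the same in all 4 groups, and no neighbours in it overlapped within a group. HSP90AB1 was first, at 2988 and 3074 TPM in untreated Empty cells and 1948 and 1953 TPM in untreated NeuT cells, which ranked it 21 and 54 by group mean among all genes. HSPB1 (2433 and 2367 TPM in untreated Empty) and HSP90AA1 (1908 and 1937 TPM) followed. Next came PTGES3 at 685 and 676 TPM, CDC37 at 325 and 319.8, FKBP5 at 287 and 306, AHSA1 at 238 and 254, and FKBP4 at 219 and 223 TPM. HSF1, the regulator, was at 90.6 and 86.5 TPM and HSF2 at 16.8 and 14.8 TPM in the same libraries. The cytosolic Hsp90 messages together came to between 4873 and 5011 TPM in the 4 Empty libraries and between 2906 and 3056 TPM in the 4 NeuT libraries.

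**Figure D1:**
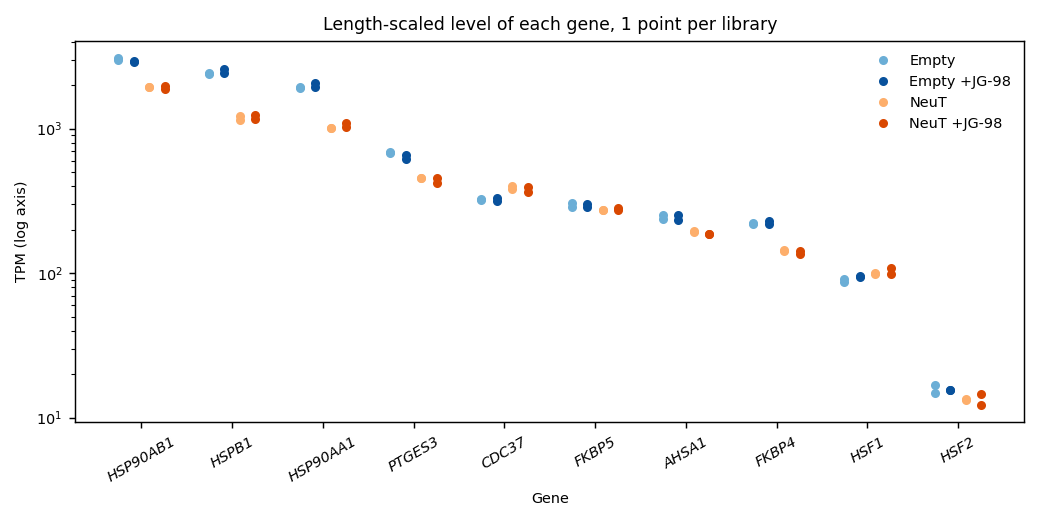
Level of each of the 10 genes in TPM on a log axis, with a point for every library and a colour for each of the 4 groups. The genes fall in the same order in each group, from HSP90AB1, between 1878 and 3074 TPM, down to HSF2, between 12.3 and 16.8 TPM.

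The first comparison asked what 12 h of JG-98 did to these messages. None of the 10 genes passed the test in either line. Over both lines the estimates ran from -0.08 to 0.11 on the log2 scale, and the outermost 95% bounds allowed a fold between 0.839 and 1.18. In the edgeR quasi-likelihood test with Benjamini-Hochberg adjustment over all 17693 genes, 0 of 10 members were called at an adjusted p of 0.05 in Empty, where 0.339% of all genes were called, and 0 of 10 in NeuT, where 3.01% were. No member had an unadjusted p under 0.05 in either line, and DESeq2 and limma-voom also called 0. The smallest adjusted p with edgeR was 0.586 in Empty (HSF1) and 0.576 in NeuT (PTGES3). The members' median log2 change was 0.01 in Empty and -0.02 in NeuT, beside 0.00 for all genes tested in each line. With so few genes called anywhere, an absence of calls among 10 genes is close to the background, and the intervals carry the information. They assume a single spread per gene for all groups. Replicates of NeuT with JG-98 lay further apart (mean chi-square per gene 20.2) than those of the other groups (4.31 to 7.65). The intervals for JG-98 in NeuT may therefore be too narrow.

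Values below are TMM-scaled CPM, counts brought to a common library size by edgeR's trimmed-mean normalisation, a scale that serves to compare a gene with itself across libraries. HSF1 stood at 126 and 118 in untreated Empty cells and at 135 and 128 with JG-98. The Empty groups did not overlap, yet the difference of 0.11 (SE 0.059, 95% interval -0.02 to 0.23) was not called. In NeuT cells HSF1 stood at 146 and 145 untreated and at 144 and 155 with JG-98, groups that overlapped, with a difference of 0.04 (95% interval -0.09 to 0.16). HSF2, a related factor that can pair with HSF1, was between 8.94 and 11.9 CPM in all libraries, and JG-98 gave differences of -0.01 in each line with intervals from -0.25 to 0.23. Its 426 to 676 counts per library make it the least precise of the 10.

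HSP90AA1, the stress-inducible cytosolic Hsp90, was at 2621 and 2607 CPM in untreated Empty and at 2893 and 2642 with JG-98. In NeuT it was at 1449 and 1464 untreated and at 1491 and 1535 with JG-98. The treated libraries were the higher ones in both lines, by 0.08 (95% interval -0.03 to 0.19) and 0.05 (-0.06 to 0.17) on the log2 scale, and neither difference was called. HSP90AB1, the constitutive form, stood at 2331 and 2350.2 CPM in untreated Empty and at 2306 and 2247 in treated Empty. The NeuT values were 1601 and 1603 untreated and 1547 and 1582 treated. Here the treated libraries were the lower ones in both lines, with differences of -0.04 (interval -0.14 to 0.06) and -0.03 (-0.14 to 0.07), again without a call. With 2 libraries a side, groups that do not overlap are common: 43.1% of all genes in Empty and 44.8% in NeuT had none. Among the 10 members, JG-98 left 3 higher and 1 lower without overlap in Empty, and 1 higher and 4 lower in NeuT.

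For the cochaperones and HSPB1 the intervals were of like width. The differences with JG-98 ran from -0.07 (PTGES3, the p23 cochaperone that stabilises the closed form of Hsp90) to 0.04 (FKBP4) in Empty among the 5 cochaperones. In NeuT they ran from -0.08 (PTGES3) to 0.00 (FKBP5). HSPB1, the small heat shock protein Hsp27, differed by 0.08 (95% interval -0.05 to 0.21) in Empty and by 0.01 (-0.12 to 0.14) in NeuT. The effect of JG-98 averaged over lines called 0 of 10 members where 3.97% of all genes were called, and with DESeq2 and limma-voom the members gave 0 calls as well; no member had an unadjusted p under 0.05 with edgeR. PTGES3 passed in that average once NeuT with JG-98 replicate 1 was left out, at -0.11 with an edgeR adjusted p of 0.0438. The difference of the response between lines, tested as an interaction, called 0 of 10 members and 1 of all genes (0.00565%). In the authors' deposited table the members' log2 fold changes with JG-98 lay between -0.06 and 0.11 in Empty and between -0.08 and 0.05 in NeuT, with adjusted p of 0.570 or more and 0.561 or more.

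**Figure D2:**
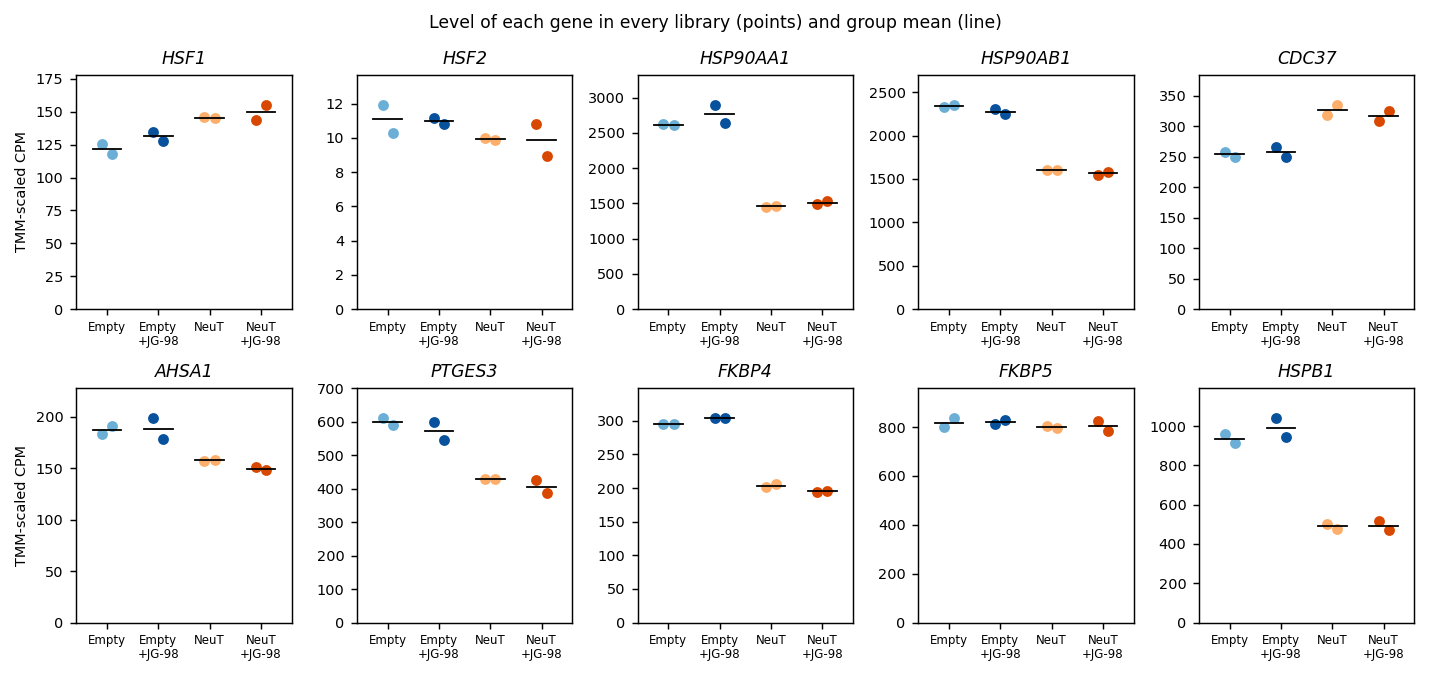
TMM-scaled CPM of each of the 10 genes in every library (points) with the group mean (line), for Empty and NeuT cells untreated or with 1 µM JG-98 for 12 h, each panel from 0. Points with and without JG-98 lie close within a line, while HSP90AA1, HSP90AB1, FKBP4, PTGES3, AHSA1 and HSPB1 sit lower in all 4 NeuT libraries than in any Empty library.

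The second comparison set NeuT beside Empty cells without treatment. Of the 10 genes 8 were called, in both directions. HSPB1, HSP90AA1, HSP90AB1, FKBP4, PTGES3 and AHSA1 were lower in NeuT, by between 0.25 and 0.94 on the log2 scale, while CDC37 and HSF1 were higher, by 0.36 and 0.26. FKBP5 and HSF2 were not called. The lines differed widely: edgeR called 42.0% of all genes at an adjusted p of 0.05, 21.2% higher and 20.8% lower in NeuT, so the 2 members called higher and 6 called lower are read against those shares. The members' median difference was -0.37, beside -0.02 for all genes tested. With JG-98 in both lines the same 8 genes were called in the same directions, 2 higher and 6 lower, where 41.7% of all genes were called, 21.7% higher and 20.0% lower. DESeq2 and limma-voom gave 2 higher and 6 lower in each case.

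HSF1 was 1 of the 2 members higher in NeuT. Its untreated level of 126 and 118 CPM in Empty and 146 and 145 in NeuT gave a difference of 0.26 (SE 0.059, edgeR adjusted p = 0.0021), and with JG-98 the difference was 0.19 (edgeR adjusted p = 0.0169). The NeuT libraries were all above the Empty ones, by a margin that rests on few libraries. Without Empty untreated replicate 2 the first difference was 0.21 with an edgeR adjusted p of 0.0583. With JG-98 the call was lost when libraries were scaled by total counts (0.11, edgeR adjusted p = 0.123), without Empty with JG-98 replicate 2 (0.15, adjusted p = 0.128) or without NeuT with JG-98 replicate 2 (0.13, adjusted p = 0.0726), and in a fit of only the 4 libraries compared (0.19, adjusted p = 0.0711). HSF2 differed by -0.16 untreated (95% interval -0.40 to 0.08), which was not called.

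Both cytosolic Hsp90 genes were lower in NeuT. The 95% intervals of the differences, -0.96 to -0.73 for HSP90AA1 and -0.65 to -0.44 for HSP90AB1, did not overlap, and no test was made between the genes. HSP90AA1 averaged 2614 CPM in untreated Empty and 1456 in untreated NeuT, a difference of -0.84 (SE 0.054, edgeR adjusted p = 1.5e-09), or 0.557 of the Empty level. HSP90AB1 averaged 2340.4 and 1602 CPM, a difference of -0.55 (SE 0.049, edgeR adjusted p = 9.4e-08), or 0.684 of the Empty level. No NeuT library reached any Empty library for either gene. Under JG-98 the differences were -0.87 and -0.54. The share of HSP90AB1 in the length-scaled sum of both genes was 61.0% and 61.4% in untreated Empty, 58.4% and 60.0% in Empty with JG-98, 66.0% and 65.9% in untreated NeuT, and 64.6% and 64.5% in NeuT with JG-98. The shares of the lines did not overlap, and within each line the treated libraries had the lower share. No test was made of these shares.

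Reads of near-identical copies bear on both genes. Processed pseudogenes of HSP90AA1 held between 5.22% and 5.84% of the gene's reads plus theirs, and those of HSP90AB1 between 2.48% and 2.89%. The pseudogenes HSP90AA2P (-0.83, edgeR adjusted p = 1.4e-08) and HSP90AA6P (-1.16, adjusted p = 1.1e-04) were lower in untreated NeuT too, as was HSP90AB2P (-1.05, adjusted p = 3.7e-04). How reads that fit several copies were counted is not given in the sources used here, so the split between parent and copy is uncertain. With the copies added to their parents, the members gave the same number of calls.

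**Figure D3:**
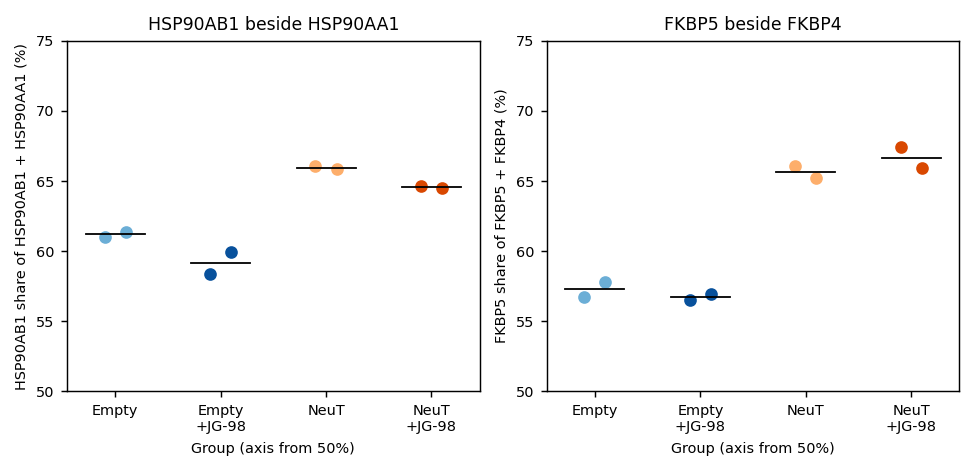
Share of HSP90AB1 in the length-scaled sum of HSP90AB1 and HSP90AA1, and of FKBP5 in that of FKBP5 and FKBP4, in each library (points) with the group mean (line), on axes that run from 50% to 75%. All NeuT libraries lie above all Empty libraries in both panels, for example 64.5% or more against 61.4% or less for HSP90AB1.

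The cochaperones were called in both directions. CDC37, the adaptor that brings kinases to Hsp90, was at 259 and 249.6 CPM in untreated Empty and at 319 and 335 in untreated NeuT. It was higher by 0.36 (SE 0.056, edgeR adjusted p = 5.1e-05), without overlap. AHSA1, which speeds the ATPase of Hsp90, was at 183 and 192 CPM in untreated Empty and 157 and 158 in untreated NeuT. Its estimate was the smallest of the 6 that were lower, a difference of -0.25 (SE 0.059, edgeR adjusted p = 0.0024). PTGES3 stood at 609.6 and 589 CPM in untreated Empty and at 429.8 and 429 in untreated NeuT, a difference of -0.48 (SE 0.060, edgeR adjusted p = 5.5e-06). With JG-98 the differences were 0.30 for CDC37, -0.33 for AHSA1 and -0.49 for PTGES3.

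The immunophilins FKBP4 (FKBP52) and FKBP5 (FKBP51), which sit on the same Hsp90 and steroid receptor complexes with opposing effects on the glucocorticoid receptor, gave 1 call between them. FKBP4 was at 296 and 296 CPM in untreated Empty and 201 and 206 in untreated NeuT, a difference of -0.54 (SE 0.050, edgeR adjusted p = 1.7e-07). FKBP5 was at 799 and 835 CPM in untreated Empty and 806 and 795 in untreated NeuT, with overlapping libraries and a difference of -0.03 (95% interval -0.14 to 0.08). Of their length-scaled sum, FKBP5 made up 57.3% ± 0.77 (SD, n = 2) in untreated Empty and 65.6% ± 0.57 (SD, n = 2) in untreated NeuT. Exons of FKBP4 overlap an antisense gene, ITFG2-AS1, and one further gene over 11.39% of their bases, and whether counting used strand is not given in the sources used here. For the other members this overlap was at most 3.75%.

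HSPB1 had the largest estimate of the 10. It was at 958 and 914 CPM in untreated Empty and at 504 and 476 in untreated NeuT, and every NeuT library was below every Empty library. The difference was -0.94 (SE 0.062, edgeR adjusted p = 2.4e-09), or 0.523 of the Empty level, and -1.01 (edgeR adjusted p = 8.8e-10) with JG-98. Counting libraries without overlap between the untreated lines, 2 members were higher, 7 lower and 1 overlapped, where 73.2% of all genes did not overlap. With JG-98 the members gave the same numbers and 67.6% of all genes did not overlap.

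**Figure D4:**
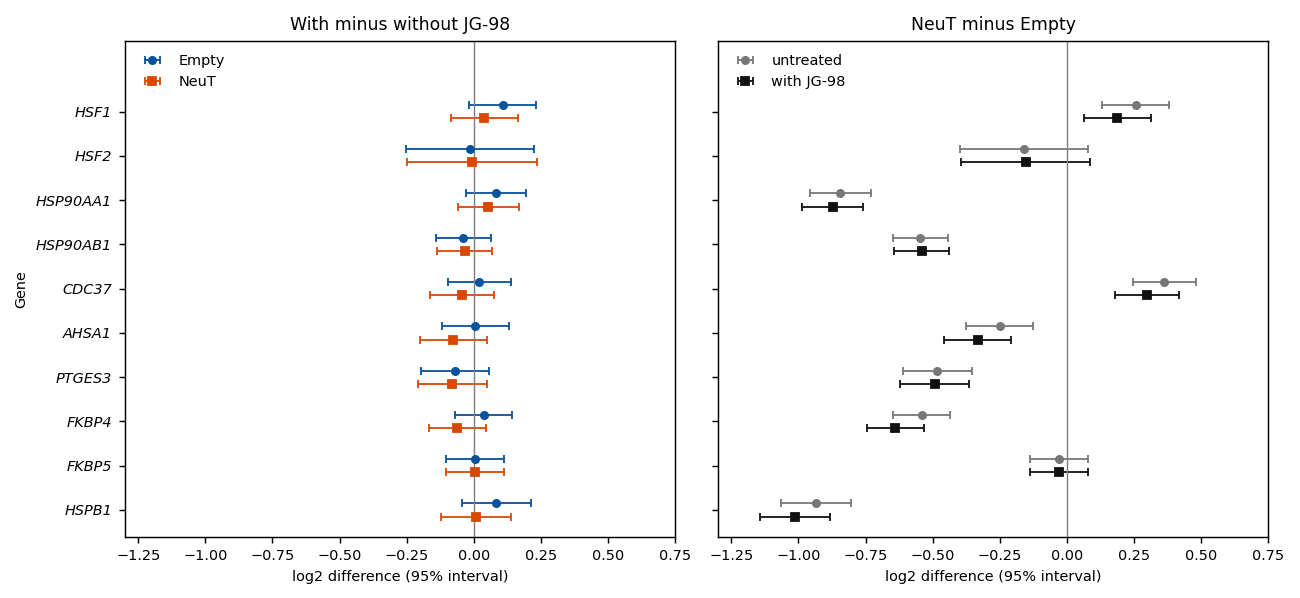
Log2 differences with 95% intervals from edgeR for the 10 genes, JG-98 against untreated in each line (left) and NeuT against Empty in each treatment (right). All intervals on the left cross 0, while on the right those of 6 genes lie below 0 and those of CDC37 and HSF1 above it. On the right the intervals of HSF2 and FKBP5 cross 0, with FKBP5 at -0.03 in both treatments.

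Other values moved with the lines. MKI67, a marker of cycling cells, was between 249 and 325 CPM in the Empty libraries and between 88.1 and 98.3 in the NeuT libraries. The summed level of 12 basal breast epithelial markers was 29053 to 30433 CPM in Empty and 40106 to 42058 in NeuT, with 9 called higher and 2 lower between untreated lines. That of 7 luminal markers was 2639 to 2793 and 2873 to 3262 CPM, with 2 called higher, 1 lower and 3 not called of 6 tested (median difference 0.09). Of 7 fibroblast markers LUM and PDGFRA averaged 3 counts or fewer, and the sum was 8.52 to 9.82 CPM in Empty and 68.4 to 83.0 in NeuT, where DCN was higher by 4.42 (edgeR adjusted p = 3.3e-12). DCN was the only one called of the 4 fibroblast markers tested, and the lowest estimate among the others was -1.08. Blood cell markers summed to 5.25 to 7.22 CPM in Empty and 10.9 to 12.4 in NeuT, with PTPRC, CD3E and HBB at 3 counts or fewer on average, and endothelial markers to 12.3 to 17.6 and 9.55 to 11.4. Of the 5 endothelial markers 1 was called higher and 1 lower in untreated NeuT (median difference 0.07), and 2 higher and 2 lower with JG-98 (median difference 2.15), so the sum and the median differ in direction. The part of these differences in the results on the line was not tested. In bulk libraries, fewer cells that express a gene and less of its RNA per cell cannot be told apart. Library totals were between 55050996 and 56861971 counts except for Empty with JG-98 replicate 1, at 37341458.

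The wider Hsp90 system was read from lists of other genes. Of 26 other Hsp90 cochaperones 24 were tested, and JG-98 called 0 in either line (smallest edgeR adjusted p 0.379 in Empty and 0.0597 in NeuT), where 0.339% and 3.01% of all genes were called. Averaged over lines it called 1, NASP, a histone chaperone, lower with a difference of -0.20 (edgeR adjusted p = 0.0244). That call was lost without any one of the 4 Empty libraries or NeuT untreated replicate 2, at an edgeR adjusted p of 0.0660 to 0.197. Between untreated lines 3 were higher and 8 lower in NeuT, 11 of 24 beside 42.0% of all genes, which is near the background, with a median of -0.07. NASP differed by -0.90 (edgeR adjusted p = 1.2e-08), CHORDC1 by -0.69 (adjusted p = 2.2e-07), and FKBP8, a membrane-anchored immunophilin, by 0.58 (adjusted p = 7.6e-08). One of the 8, ITGB1BP2, had few counts. Both organelle Hsp90 genes were lower in untreated NeuT: HSP90B1, the GRP94 of the endoplasmic reticulum, differed by -0.66 (edgeR adjusted p = 3.5e-08) and TRAP1, of mitochondria, by -0.43 (adjusted p = 1.6e-05). Under JG-98 HSP90B1 went from 566 and 558 CPM to 482 and 492 in NeuT, a difference of -0.21 (edgeR adjusted p = 0.0474). That call was lost without any one of the 4 untreated libraries, at an edgeR adjusted p of 0.108 to 0.316, and also without robust estimation (adjusted p = 0.0510) and in a fit of only the 4 NeuT libraries (adjusted p = 0.144). Averaged over lines the difference was -0.14 (edgeR adjusted p = 0.0438), a call lost without any one of the untreated libraries or Empty with JG-98 replicate 2, at an adjusted p of 0.147 to 0.210.

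Among 25 heat-inducible genes that HSF1 is known to activate, 22 were tested. This list shares CHORDC1, STIP1, CACYBP, CRYAB and HSPB8 with the other lists. With JG-98 edgeR called 0 in Empty, and the list medians were -0.02 and -0.07 in Empty and NeuT. Between untreated lines 6 were higher and 11 lower, where 42.0% of all genes were called, with a median of -0.22. RGS2, a regulator of G protein signalling, was higher by 2.13 (edgeR adjusted p = 3.3e-09) and the strictly inducible HSPA6 by 2.02 (adjusted p = 3.8e-05), at only 22 to 118 counts per library. HSPB8, the small heat shock protein that partners BAG3, differed by -1.10 (edgeR adjusted p = 1.7e-09) and CRYAB, αB-crystallin, by -0.96 (adjusted p = 9.3e-07). These last genes were also the 2 called, both lower, among the 5 tested of 9 other small heat shock proteins. HSPA1A, HSPA1B, HSPA1L, FKBPL and DAXX, neighbours on chromosome 6, held at most 10 counts in any library and are not read as unexpressed.

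FKBP5 is also a classical target of the glucocorticoid receptor, and it was not called in any comparison. Of 13 genes of the receptor and its targets, edgeR called 2 higher with JG-98 in Empty and 4 higher in NeuT, and 0 lower in either, where 0.339% and 3.01% of all genes were called, with list medians of 0.11 and 0.07. TSC22D3 (GILZ) went from 27.0 and 28.3 CPM to 37.8 and 36.3 in Empty and from 35.2 and 37.7 to 59.4 and 54.9 in NeuT. Its differences were 0.42 (edgeR adjusted p = 0.0136) and 0.65 (adjusted p = 4.8e-05), and its treated libraries were higher without overlap in both lines. ERRFI1, a feedback inhibitor of EGFR, rose by 0.32 (edgeR adjusted p = 0.0115) and 0.49 (adjusted p = 4.8e-05). Both calls in Empty were lost without any one of the 4 Empty libraries, at an edgeR adjusted p of 0.0609 to 0.256 for TSC22D3 and 0.0523 to 0.348 for ERRFI1. In NeuT DUSP1 rose by 0.30 (edgeR adjusted p = 0.0061) and BIRC3 by 0.35 (adjusted p = 0.0496), while FKBP5 differed by 0.00 (95% interval -0.10 to 0.11). The call of BIRC3 was lost without any one library other than NeuT with JG-98 replicate 1, and its difference was 0.17 without NeuT with JG-98 replicate 2 (edgeR adjusted p = 0.149). With the replicate number as a block the difference of BIRC3 was 0.35 with an edgeR adjusted p of 0.0649, and the call was also lost with RLE scaling (adjusted p = 0.0596) and with a filter of 10 counts in every library (adjusted p = 0.0527). The call of DUSP1 was lost without either untreated NeuT library, at an edgeR adjusted p of 0.102 and 0.170. In a fit of only the 4 NeuT libraries neither was called (edgeR adjusted p = 0.136 for BIRC3 and 0.0604 for DUSP1). Between untreated lines 8 of the 13 were higher in NeuT and 1 lower, where 21.2% and 20.8% of all genes were, led by BIRC3 (1.67, edgeR adjusted p = 7.9e-09), DUSP1 (1.64, adjusted p = 1.5e-12) and NFKBIA (1.16, adjusted p = 1.6e-10).

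**Figure D5:**
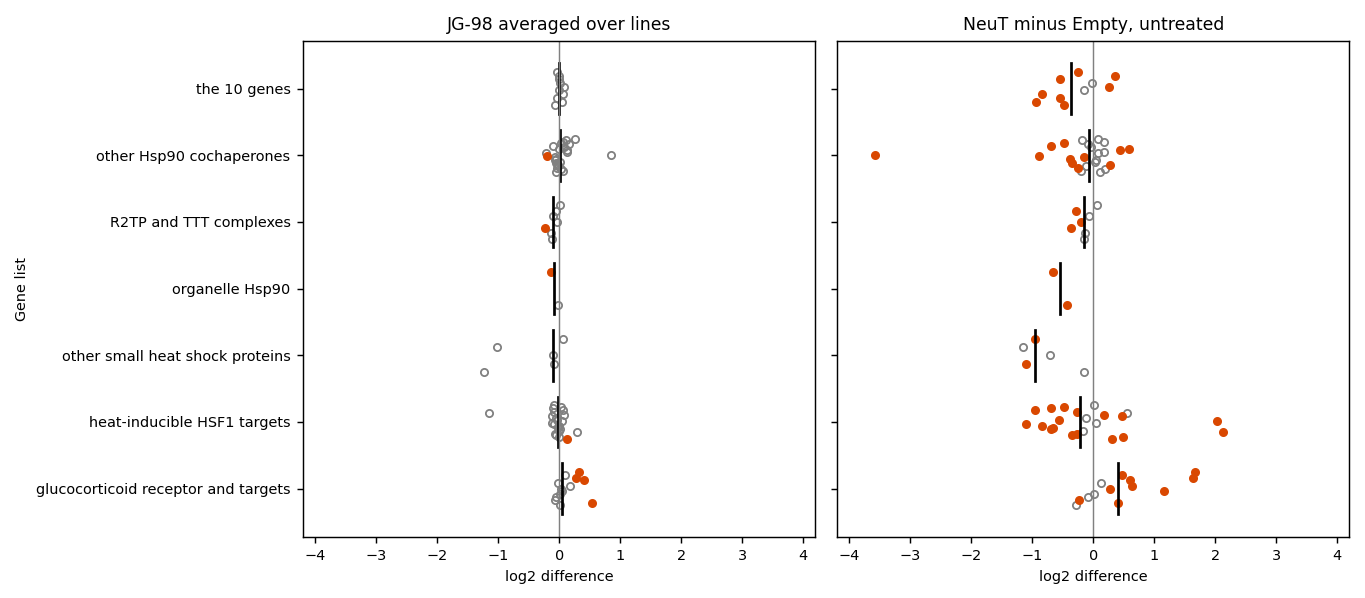
Log2 differences from edgeR for the 10 genes and for 6 lists of related genes (points, filled where called at an adjusted p of 0.05; lines, list medians), for JG-98 averaged over lines (left) and NeuT against Empty untreated (right). On the left most points lie near 0, and on the right the medians run from -0.96 for other small heat shock proteins to 0.40 for glucocorticoid receptor targets.

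Genes whose pattern over the 8 libraries was most like a member's were found among 13116 genes by Pearson correlation of log2 CPM. The 8 libraries share 2 lines that differ at many genes, so high values are common. For HSP90AA1 the nearest were EZH2, EPCAM and PHKB (r = 0.999 for EZH2), and for HSP90AB1 they were BUB1B, NCAPG2 and SPAG5 (r = 0.999 for BUB1B). For HSPB1 NDC80, SPINK6 and CHPT1 were nearest (r = 0.999 for NDC80). For HSF1 they were MORN4 and NLRP3 (r = 0.989 and 0.988). FKBP5 had KIAA0825 as its nearest at r = 0.958.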

How the data were processed

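Per the labels' protocols, RNA of 8 MCF-10A samples was selected with oligo(dT) beads and sequenced. The submitters' processing notes name Trim Galore 0.5.0, FastQC 0.11.7, HISAT2 2.1.0, SAMtools 1.9, featureCounts 1.6.3 and limma, with hg38/GRCh38. Strand use, treatment of reads with several matches and the annotation release are not given in the sources used here. The authors deposited raw counts per gene with exonic lengths, and 2 tables of their own JG-98 comparisons, which per the file headers hold log2 fold changes, moderated t and log-odds scores and p-values. All 8 count columns matched a sample, and 0 were left unmatched. Symbols were found for 60261 of 60617 identifiers. The members and the gene lists were chosen with earlier results of these data known. Counts of 37341458 to 56861971 per library were analysed in R 4.3.3 with edgeR 4.0.16 (filterByExpr at a minimum of 10 counts and 15 in total, TMM, robust quasi-likelihood fit of 4 groups over all 8 libraries, Benjamini-Hochberg adjustment over 17693 genes, calls at an adjusted p of 0.05). Intervals at 95% came from the fit. On simulated counts for JG-98 in NeuT, 17203 genes, 77% of 100 genes changed by 0.5 and 95% of 100 changed by 1 (log2) were called. There were 16 false calls. Apart from these changes, the simulation gave all libraries a single mean and a single spread per gene, and it changed only genes averaging 100 counts or more. The real replicates of NeuT with JG-98 lay further apart than those of the other groups, so these shares need not hold for the data. Besides the members, a list and comparison named at most 3 called genes by size of change with a mean of 50 counts or more; ITGB1BP2, MKI67, DUSP1 with JG-98, FKBPL, DAXX and the HSPA1 genes were named after their values were seen. The 3 genes most like a member by correlation came from genes with a mean of 50 counts. Alternatives were RLE and total-count scaling, other filters, DESeq2 1.42.0, limma 3.58.1 (voom), no robust estimation, a replicate block, fits of 4 libraries, pseudogenes added to their parents, an adjusted p of 0.01 and each replicate left out. Replicate numbers were not taken to pair libraries. Promoter windows came from RefSeq. One call with JG-98 in the heat-inducible list and 1 marker gene are not reported here.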

Additional observations from a re-analysis of the deposited data

How the results depend on the processing

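The 8 member calls between lines and the 0 calls with JG-98 in each line held under every alternative that kept all libraries, except that HSF1 with JG-98 in both lines lost its call as given above and at an adjusted p of 0.01, where 7 members were called. Leaving out a replicate gave 7 to 8 calls between lines in each treatment, 0 with JG-98 in either line and 0 to 1 in the average over lines. Of 1120 member values under alternatives, 1052 kept direction and side of the threshold, 6 lost a call, 1 gained one, 61 uncalled ones changed sign and 0 called ones reversed. Of 1203 values of other named genes 91 lost the call. The counts over all genes moved more. JG-98 in Empty called 60 genes, and 282 with no filter, 146 with DESeq2, 205 in a fit of its 4 libraries, 19 at an adjusted p of 0.01 and 9 to 417 with a replicate left out. In NeuT it called 533, and 1000 with no filter, 185 in a fit of its 4 libraries, 200 at 0.01 and 132 to 2133 with a replicate left out, the highest without NeuT with JG-98 replicate 1. The average called 702, and 1142 with no filter, 300 at 0.01 and 259 to 1934 with a replicate left out. The interaction called 1, and 2 with total counts, 138 with no filter, 19 with DESeq2, 3 without robust estimation and 1 to 777 with a replicate left out. Calls over all lists went from 2 to 5 in Empty, from 7 to 12 in NeuT and from 0 to 1 in the interaction with no filter. The cause of these moves was not tested. Scaling by total counts changed the share of line calls that were higher in NeuT from 50.5% to 40.7% untreated and from 52.0% to 41.0% with JG-98. The HSP90AB1 share was 60.5% (Empty untreated), 65.3% (NeuT untreated) and 63.9% (NeuT with JG-98) with pseudogenes added, and 47.2%, 45.2%, 52.4% and 50.8% in the 4 groups without length scaling. Same-numbered replicates of the treated groups deviated together (correlation 0.244), and those of the other pairs of groups gave -0.101 to 0.062, so the numbers are not read as pairs. With a replicate block JG-98 called 66 genes in Empty and 593 in NeuT, the line 7497 and 7451, and members 0, 0, 8 and 8. Among named genes it ended only the call of BIRC3 with JG-98 in NeuT (0.35, edgeR adjusted p = 0.0649). A group left with 1 library is assumed to vary like the others. HSF2 had 426 to 676 counts per library and the other members 5132 or more.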

Other observations

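Messages of proteins that depend on Hsp90 for folding were read in the same fits. Of 20 client kinases and receptors 19 were tested, and edgeR called 0 in Empty and 0 in NeuT, with smallest adjusted p of 0.555 and 0.0761. Over all genes 0.339% and 3.01% were called, so an absence of calls among 19 is near the background. Between untreated lines 4 were higher in NeuT and 6 lower, where 42.0% of all genes were called. HIF1A, the oxygen-regulated transcription factor, was at 427 and 408 CPM in untreated Empty and 896 and 856 in untreated NeuT, a difference of 1.07 (edgeR adjusted p = 6.3e-11). The kinase BRAF was higher by 0.44 (edgeR adjusted p = 9.2e-04), and the xenobiotic receptor AHR differed by -0.32 (adjusted p = 9.0e-04). With JG-98 in both lines 8 clients were higher and 5 lower in NeuT, where 21.7% and 20.0% of all genes were, and EGFR was among the higher ones, by 0.56 (edgeR adjusted p = 5.9e-05).

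The R2TP and TTT complexes work with Hsp90 to assemble RNA polymerases and the large PI3K-like kinases. All 7 of their genes were tested, and 0 were called with JG-98 in either line. Averaged over lines TELO2 differed with JG-98 by -0.24 (edgeR adjusted p = 0.0075), and 3.97% of all genes were called. That call was lost without Empty untreated replicate 1, Empty with JG-98 replicate 1 or NeuT untreated replicate 2, at an edgeR adjusted p of 0.0554 to 0.0840. In untreated NeuT 3 of the 7 were lower and 0 higher, where 20.8% of all genes were lower and 42.0% were called in either direction. With JG-98 in both lines 5 of the 7 were lower and 0 higher, where 20.0% of all genes were lower. The 3 in untreated NeuT were TELO2, with a difference of -0.36 (edgeR adjusted p = 2.9e-04), RPAP3 with -0.29 (adjusted p = 0.0024) and RUVBL2 with -0.21 (adjusted p = 0.0060). The call of RPAP3 was lost without NeuT untreated replicate 2 (-0.24, edgeR adjusted p = 0.0578), and that of RUVBL2 without replicate 1 of either untreated group (-0.17 and -0.16, adjusted p = 0.0921 and 0.129). Among other HSF genes and HSF1 regulators 12 of 14 were tested, and untreated lines gave 3 higher and 3 lower, 6 of 12 beside 42.0% of all genes, which is near the background. PLK1, a mitotic kinase that can phosphorylate HSF1, differed by -1.79 (edgeR adjusted p = 4.4e-13), HSF2BP by 0.88 (adjusted p = 0.0085) and HSF4 by 0.66 (adjusted p = 0.0103). In NeuT PLK1 differed with JG-98 by -0.22 (edgeR adjusted p = 0.0441), the only call of that list with JG-98 in either line. That call was lost without any one library other than NeuT with JG-98 replicate 1. It was also lost with limma-voom (adjusted p = 0.0664), and with edgeR without robust estimation (adjusted p = 0.0569) and in a fit of only the 4 NeuT libraries (adjusted p = 0.182). The calls of HSF2BP and HSF4 were lost without single untreated libraries: HSF2BP without Empty replicate 2 (0.85, edgeR adjusted p = 0.0564) or NeuT replicate 1 (0.64, adjusted p = 0.122), and HSF4 without Empty replicate 1 (0.46, adjusted p = 0.140) or NeuT replicate 2 (0.60, adjusted p = 0.0766). Pseudogenes of the members gave 0 called higher and 6 lower of 10 tested in untreated NeuT, where 20.8% of all genes were lower, and 0 higher and 4 lower with JG-98, where 20.0% were.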
